A study of Glycine max with 30 samples.

Results

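The Kunitz trypsin inhibitor genes described here are Glyma01g10900, Glyma08g45520 and Glyma08g45531. They are 3 of the 54175 gene rows in the deposited read counts, and all 3 rows were found by identifier. The first is numbered on chromosome 1 and the other two on chromosome 8 of the Williams 82 soybean assembly. They were taken by name, with earlier results of these data known. The deposited gene ontology tables list each of them under peptidase inhibitor activity. Those tables hold only genes that the study had called between the lines in these samples. The line tests below are therefore not independent of that earlier call. The name Kunitz stands in none of the deposited tables and was not checked on sequence.

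Kunitz trypsin inhibitors are small proteins that bind trypsin-like serine proteases and block their active site. In soybean they accumulate with the storage proteins while the cotyledons fill, and raw beans owe part of their poor digestibility to them, which is one reason why soybean meal is heated. The genes form a family of similar copies, so short reads from one copy can match another.

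Whole developing soybean seeds were compared between 2 lines at 5 stages, with 3 libraries per line and stage (30 libraries). The *3mlpa* line is a low phytic acid line of genotype mips1/mrp-l/mrp-n. It carries mutant alleles of an inositol phosphate synthase gene (MIPS1) and of a pair of transporter genes (MRP-L, MRP-N). The 3MWT line is its sibling with normal phytic acid and genotype MIPS1/MRP-L/MRP-N. Both came from one cross and grew in the same chamber, but they are not isogenic, so a line effect can lie in other segregating loci and is not a test of the 3 mutations alone. Seed length set the stages, in ranges of 2 mm that start at 2 mm for stage 1 and end at 12 mm for stage 5. Each library pools seeds from several plants and holds cotyledon, endosperm and seed coat together. In such samples fewer cells of a type and less RNA per cell cannot be told apart.

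The libraries held between 14150244 and 29476755 reads counted in genes. The 6 libraries of a stage shared a sequencing lane, so that stage and lane cannot be told apart, while the lines were compared within a lane. Reads that aligned to more than one place were not counted. The tally of their alignments came to 17.5 to 39.2 per 100 counted reads in the *3mlpa* libraries. In the 3MWT libraries it came to 51.6 to 276 per 100, with no overlap between the lines. A read can enter this tally once for each place it aligned to, so it is not a number of reads. The part of such reads in the results below was not tested. Levels below are given as counted reads or as normalized CPM (counts per 1000000 reads), for which the libraries were scaled by the trimmed mean of M values. A first principal component of the other 32399 genes with a mean of at least 1 CPM held 56.2% of their variance and ordered the libraries by stage. A gene was called where the Benjamini-Hochberg adjusted p of edgeR's quasi-likelihood test was at or below 0.01 over all genes tested. No gene lengths were used, so levels are compared between libraries for one gene and not between genes.

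Glyma08g45531 was the member with most reads, and it rose over seed growth in both lines. In *3mlpa* seeds its 3 libraries held 1075, 797 and 1549 reads at stage 1. They held 29880, 16743 and 34181 reads at stage 2, and 75601, 208907 and 155907 reads at stage 3. At stage 4 they held 276327, 241156 and 305994 reads, and at stage 5 383896, 463472 and 353526 reads. By counts, each *3mlpa* library held more reads than every *3mlpa* library of the stage before it, while on the normalized CPM scale stages 4 and 5 overlapped. In 3MWT seeds the counts were 2966, 8460 and 1291 at stage 1. They were 132435, 71840 and 88650 at stage 2, and 233372, 349808 and 317236 at stage 3. At stage 4 they were 326130, 423260 and 252449, and at stage 5 411647, 439209 and 417860. At stage 2 Glyma08g45531 ranked 17 to 56 among all genes by reads in the *3mlpa* libraries, and 1 or 2 in the 3MWT libraries. At stages 3, 4 and 5 it ranked 3 to 4, 4 to 7 and 7 to 9 in *3mlpa* libraries. In 3MWT libraries it ranked 3, 5 and 6 at these stages. Such ranks by reads take no account of gene length.

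Scaled to library size, Glyma08g45531 averaged 40.7 ± 12.2, 803 ± 249, 6211 ± 2731, 14577 ± 5096 and 26039 ± 5121 normalized CPM from stage 1 to stage 5 in *3mlpa* seeds (SD, n = 3 each). The 3MWT seeds averaged 199 ± 198, 3959 ± 2041, 15361 ± 2676, 20816 ± 2783 and 28036 ± 560 normalized CPM (SD, n = 3 each). Set against its own mean at stage 5, Glyma08g45531 stood at 3.08% at stage 2 and 23.9% at stage 3 in *3mlpa* seeds, and at 14.1% and 54.8% in 3MWT seeds. The lines did not overlap at stages 1, 2 and 3 and overlapped at stages 4 and 5. Overlap of the lines in a gene, here and below, is a description without a count over all genes. In edgeR's test of the lines, 12702 of 42457 genes had an unadjusted p under 0.05 at stage 1. At stage 2 it was 17561 of 42269 genes, at stage 3 12226 of 40971, and at stage 4 9578 of 39956. The 3MWT libraries of stage 5 lay within 1.04-fold of each other in Glyma08g45531. At stage 5 the 3 members together took 2.15 ± 0.427% of the counted reads in *3mlpa* seeds and 2.33 ± 0.0970% in 3MWT seeds (SD, n = 3 each). Of these reads of the 3 members, Glyma08g45531 held 85.6 to 86.7% in *3mlpa* libraries and 80.1 to 88.3% in 3MWT libraries.

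**Figure D1:**
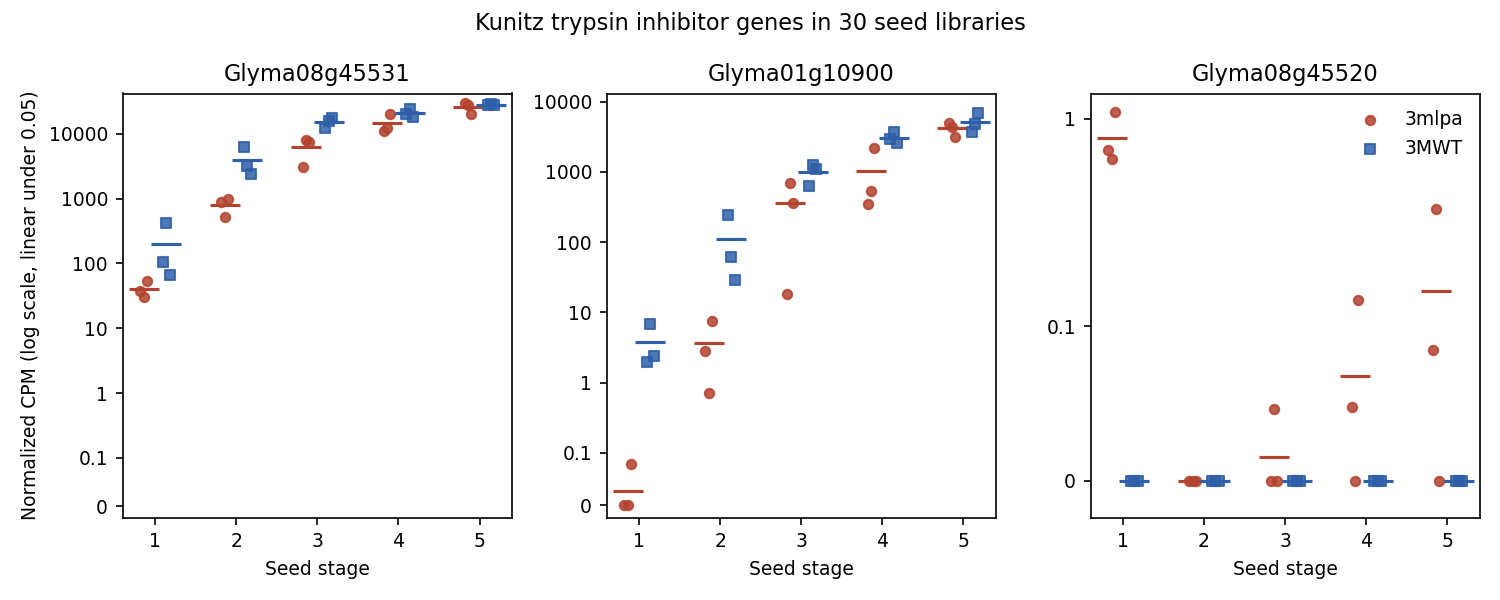
Normalized CPM (log scale, linear under 0.05) of each inhibitor gene in the 30 libraries by seed stage, with *3mlpa* as red circles on the left and 3MWT as blue squares on the right of each stage. Each point is 1 library and each bar the mean of 3. Glyma08g45531 and Glyma01g10900 climb in both lines and the lines come together at stage 5, while Glyma08g45520 has no read in any of the 15 3MWT libraries.

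Glyma01g10900 also rose over seed growth in both lines, and in *3mlpa* seeds of stage 1 it was barely detected. In *3mlpa* seeds it had 0, 0 and 2 reads at stage 1. It had 94, 23 and 261 reads at stage 2, and 443, 17850 and 7660 reads at stage 3. At stage 4 it had 8613, 10376 and 32638 reads, and at stage 5 64565, 71194 and 55051 reads. The *3mlpa* replicates differed widely in the middle of the series, with a 38.5-fold gap between the highest and lowest library at stage 3 on the normalized CPM scale. In 3MWT seeds it had 56, 136 and 47 reads at stage 1. It had 5100, 1386 and 1069 reads at stage 2, and 11692, 27451 and 19416 reads at stage 3. At stage 4 it had 48382, 65059 and 34770 reads, and at stage 5 54483, 74135 and 103953 reads. The 3MWT libraries stood above every *3mlpa* library at stages 1, 2 and 4, and the lines overlapped at stages 3 and 5.

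Mean levels of Glyma01g10900 in *3mlpa* seeds were 0.0232 ± 0.0403, 3.71 ± 3.52, 359 ± 339, 1017 ± 1010 and 4158 ± 937 normalized CPM from stage 1 to stage 5 (SD, n = 3 each). In 3MWT seeds they were 3.74 ± 2.70, 110.7 ± 114, 986 ± 327, 3065 ± 569 and 5128 ± 1600 normalized CPM (SD, n = 3 each). The SD was close to the mean or above it at stages 1 to 4 in *3mlpa* seeds and at stage 2 in 3MWT seeds. At stage 4 the *3mlpa* seeds had reached 24.5% of their own stage 5 mean of Glyma01g10900 and the 3MWT seeds 59.8%.

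Glyma08g45520 was close to the detection limit, and most of its reads lay at stage 1. Its reads were 20, 17 and 31 in the *3mlpa* libraries of stage 1 and 0 in each *3mlpa* library of stage 2. Later *3mlpa* libraries held 0, 1 and 0 reads at stage 3, then 1, 0 and 2 at stage 4 and 1, 6 and 0 at stage 5. All 15 of the 3MWT libraries had 0 reads of Glyma08g45520, out of 303858109 counted reads. Such a count allows up to 0.00987 CPM over the line, on a limit of 3 reads that covers counting error only. Reads that fit another copy equally well were not counted, so that 0 does not show that the gene was silent.

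The comparison of the lines at each stage asked how the low phytic acid genotype differed from its sibling in seeds of one length range. Glyma01g10900 was lower in *3mlpa* seeds at stages 1 and 2. At stage 1 the *3mlpa* libraries held 2 reads in all and the 3MWT libraries 239, a ratio of 0.00679 after scaling, with an exact 95% interval of 0.000818 to 0.0248 that covers counting error only. The test called this difference (adjusted p = 0.00900), where 0.897% of the 42457 genes tested were called. At stage 2 the log2 fold change of *3mlpa* over 3MWT was -4.85 ± 0.943 (SE, adjusted p = 0.00651), at a stage where 14.2% of the 42269 genes tested were called. At stage 2 the *3mlpa* libraries also lay between -83.7 and -71.0 on the first principal component and the 3MWT libraries between -68.2 and -33.4, without overlap, and the part of this difference in the line effect on either gene was not tested. Both calls lay close to the threshold. Leaving out any one of the 3 *3mlpa* libraries, or 3MWT replicate 1 or 3, took the stage 1 call away (adjusted p = 0.0240 to 0.0547), and leaving out any one *3mlpa* library or 3MWT replicate 2 took the stage 2 call away (adjusted p = 0.0136 to 0.0269). The log2 fold change at stage 2 then lay between -5.92 and -3.56, and the direction was the same each time at both stages.

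Glyma08g45531 was lower in *3mlpa* seeds at stage 2, with a log2 fold change of -2.27 ± 0.370 (SE, adjusted p = 0.00313). The call was lost without any one of the *3mlpa* libraries of that stage, with adjusted p between 0.0109 and 0.0127, and over all 6 libraries left out in turn the value lay between -2.53 and -1.77. At stage 1 the fitted log2 fold change was also -2.27, with a larger SE of 0.657, and it was not called (adjusted p = 0.0630). The 3MWT libraries of stage 1 were unequal, and without replicate 2, which had 8460 reads, the stage 1 value was -1.06. That library also stood furthest along the first principal component among the stage 1 libraries, at -116, where the other 3MWT libraries of the stage lay at or below -143.

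From stage 3 on, neither gene was called between the lines. At stage 3 the log2 fold change was -1.46 ± 0.921 for Glyma01g10900 (SE, adjusted p = 0.320). It was -2.37 without *3mlpa* replicate 2, -0.90 without *3mlpa* replicate 1 and -2.34 with the replicate number as a block, and was called in none of these. For Glyma08g45531 it was -1.31 ± 0.477 (SE, adjusted p = 0.112), with 1.23% of all genes called. At stage 4, where 0.996% of genes were called, the values were -1.59 ± 0.626 for Glyma01g10900 (SE, adjusted p = 0.173) and -0.51 ± 0.305 for Glyma08g45531 (SE, adjusted p = 0.347). The stage 4 result turned on a single *3mlpa* library. Replicate 3 had 20417 normalized CPM of Glyma08g45531, against 11030 and 12285 in the other two, and its first principal component score of 96.9 was the highest of the 6 libraries of the stage. Without it both genes were called as lower in *3mlpa* seeds, at -2.82 for Glyma01g10900 (adjusted p = 5.54e-06) and -0.85 for Glyma08g45531 (adjusted p = 0.00584), in a fit that called 3449 genes in place of 398.

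At stage 5 the fitted differences were small. Glyma01g10900 had a log2 fold change of -0.33 ± 0.257 (SE, adjusted p = 0.430) and Glyma08g45531 of -0.13 ± 0.186 (SE, adjusted p = 0.679), while 1.91% of the 39253 genes tested were called. With 1 library left out at a time the value for Glyma01g10900 lay between -0.50 and -0.06. Without *3mlpa* replicate 3 the value for Glyma08g45531 was 0.03 (adjusted p = 0.915).

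For Glyma08g45520, the *3mlpa* libraries of stage 1 held 68 reads and the 3MWT libraries 0. With the 3MWT group set to a floor of 3 reads over the group, scaled counts were at least 18.4-fold higher in *3mlpa* seeds. This bound covers counting error only, and reads that fit another copy equally well were not counted. The adjusted p was 0.0132, just above the threshold, and this gene was therefore not called. It passed the filter on low counts only through its *3mlpa* reads, so the direction of this test was fixed. It was called with DESeq2 (adjusted p = 2.45e-05), without the filter on low counts (adjusted p = 0.00984), in a fit over all 30 libraries (adjusted p = 0.00242) and without 3MWT replicate 2 (adjusted p = 0.00344), over a range of 2.45e-05 to 0.0724 for all alternatives. At stages 2 to 5 it had fewer than 10 reads a stage over both lines and was not tested between them.

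**Figure D2:**
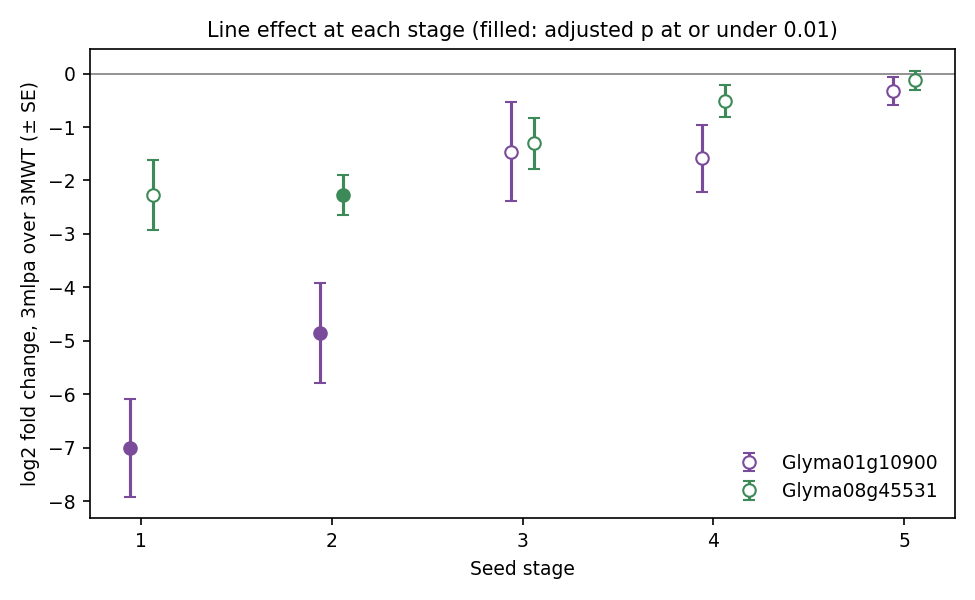
Log2 fold change of *3mlpa* over 3MWT at each seed stage for Glyma01g10900 (purple) and Glyma08g45531 (green), with bars of 1 SE. Filled points passed the threshold of 0.01. The values lie below 0 at every stage and approach it at stage 5, at -0.33 and -0.13, and the stage 1 point of Glyma01g10900 rests on 2 reads in the *3mlpa* libraries.

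Averaged over the 5 stages in 1 fit of all 30 libraries, both abundant members were lower in *3mlpa* seeds. The mean log2 fold change was -3.04 ± 0.503 for Glyma01g10900 (SE, adjusted p = 2.57e-05) and -1.30 ± 0.226 for Glyma08g45531 (SE, adjusted p = 4.69e-05). This contrast called 33.3% of the 45815 genes tested, so that a call in it was common. Leaving out each replicate number in turn kept both calls, with values of -4.05 to -2.65 for Glyma01g10900 and of -1.59 to -1.01 for Glyma08g45531. Glyma08g45520 has no usable estimate here, because all of its 3MWT groups are at 0.

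The change of the line effect with stage was tested as the mean effect at stages 4 and 5 minus that at stages 1 and 2. For Glyma01g10900 this difference was 4.98 ± 1.23 on the log2 scale (SE, adjusted p = 0.00961). For Glyma08g45531 it was 1.99 ± 0.503 (SE, adjusted p = 0.0114), on the other side of the threshold. In this contrast 4.55% of all genes were called. The call for Glyma01g10900 was lost without replicate number 1 (adjusted p = 0.0526), 2 (adjusted p = 0.127) or 3 (adjusted p = 0.0436). The value then lay between 4.15 and 6.57, and it remained positive.

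Over the whole span of seed growth Glyma08g45531 and Glyma01g10900 rose in both lines. In *3mlpa* seeds Glyma08g45531 rose by a log2 fold change of 9.30 (adjusted p = 9.82e-06) at stage 5 over stage 1. In 3MWT seeds it rose by 7.14 (adjusted p = 0.000354), or by 8.33 without stage 1 replicate 2. Glyma01g10900 rose as well in *3mlpa* seeds, with 190810 reads at stage 5 and 2 reads at stage 1, a fold with an exact 95% interval of 47024 to 1402680 after scaling, which covers counting error only (adjusted p = 2.52e-06). In 3MWT seeds Glyma01g10900 rose by 10.43 on the log2 scale (adjusted p = 1.92e-05), or by 11.18 without stage 1 replicate 2. Such calls were frequent, at 39.1% of genes in *3mlpa* seeds and 31.7% in 3MWT seeds. Glyma08g45520 had 7 reads at stage 5 and 68 at stage 1 in *3mlpa* seeds, a ratio of 0.183 after scaling with an exact 95% interval of 0.0710 to 0.399 for counting error only, and it was not called (adjusted p = 0.0297). That ratio passed the threshold without *3mlpa* stage 5 replicate 2, the library that held 6 of the 7 reads (adjusted p = 0.00692). Here too the gene passed the filter on low counts only through its stage 1 reads.

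The steps between neighbouring stages placed the rise. In *3mlpa* seeds all 3 members changed at stage 2 over stage 1, where 9.23% of genes were called. Glyma08g45531 rose by 4.29 on the log2 scale (adjusted p = 0.000138). Glyma01g10900 rose to 378 reads, against 2 at stage 1, a 158-fold ratio after scaling with an exact 95% interval of 43.4 to 1308 for counting error only (adjusted p = 0.00636), a call lost without any one library of stage 1 or without replicate 1 or 3 of stage 2 (adjusted p = 0.0117 to 0.0332), and in a fit over all 30 libraries (adjusted p = 0.0122). Glyma08g45520 fell, being at least 27.2-fold lower at stage 2 on the floor of 3 reads, for counting error only (adjusted p = 0.00166). It passed the filter on low counts only through its 68 reads at stage 1. The direction of this test was therefore fixed, and nothing further is read from it.

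At stage 3 over stage 2 the *3mlpa* values were 2.95 for Glyma08g45531 (adjusted p = 0.0133) and 6.59 for Glyma01g10900 (adjusted p = 0.0296), neither called, where 1.24% of genes were. Both passed without *3mlpa* stage 3 replicate 1 (adjusted p = 0.000603 for Glyma08g45531 and 0.000866 for Glyma01g10900). That library had the fewest reads of both genes at its stage and the lowest first principal component score, at -7.58. With 1 library left out at a time the value of Glyma01g10900 lay between 5.64 and 7.67. Glyma08g45531 was also called with DESeq2 (adjusted p = 1.52e-14), in a fit over all 30 libraries (adjusted p = 0.000710), without the filter on low counts (adjusted p = 0.00912) and with library totals (adjusted p = 0.00969). Glyma01g10900 was called with DESeq2 (adjusted p = 5.60e-05) and in the fit over 30 libraries (adjusted p = 0.000251). The last 2 steps of the *3mlpa* line called no member. They called 0 genes of any kind with edgeR, a share of 0%, although 5406 and 6906 genes had an unadjusted p under 0.05 and DESeq2 called 384 and 421 genes. Without *3mlpa* stage 4 replicate 3 the step from stage 4 to stage 5 was called for Glyma01g10900 (log2 fold change 3.26, adjusted p = 0.00444).

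In 3MWT seeds the first step gave values of 4.30 for Glyma08g45531 (adjusted p = 0.0170) and 4.90 for Glyma01g10900 (adjusted p = 0.0172), with 1.25% of genes called. Both were called without 3MWT stage 1 replicate 2 (adjusted p = 0.000111 for Glyma08g45531 and 0.00351 for Glyma01g10900), with DESeq2 (adjusted p = 9.25e-05 and 2.32e-05) and in a fit over all 30 libraries (adjusted p = 5.90e-06 and 0.000810). At stage 3 over stage 2 Glyma08g45531 rose by 1.96 (adjusted p = 0.00795), and 7.08% of genes were called. This call was kept only where stage 2 replicate 1 was the library left out, and was lost without any other library (adjusted p = 0.0177 to 0.0497), with the replicate number as a block (adjusted p = 0.0142) and in a fit over all 30 libraries (adjusted p = 0.0122). Glyma01g10900 stood at 3.16 in the same step (adjusted p = 0.0120) and was called without stage 2 replicate 1 (adjusted p = 0.000673), with DESeq2 (adjusted p = 0.00402), without the filter on low counts (adjusted p = 0.00441) and with library totals (adjusted p = 0.00586). Stage 2 replicate 1 had the most reads of both genes at its stage.

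At stage 4 over stage 3 Glyma01g10900 rose by 1.64 in 3MWT seeds (adjusted p = 0.00218), with 4.31% of genes called, while Glyma08g45531 had a log2 fold change of 0.45 (adjusted p = 0.224). With the replicate number as a block, 4285 genes were called in this step in place of 1712, and Glyma01g10900 remained called (adjusted p = 1.61e-05). Glyma08g45531 did not pass under the block (adjusted p = 0.0208). The call of Glyma01g10900 was lost without stage 4 replicate 1 (adjusted p = 0.0138) or replicate 2 (adjusted p = 0.0124). It was also lost in a fit over all 30 libraries, where the value was 1.64 with a larger SE of 0.848 (adjusted p = 0.305). At stage 5 over stage 4 the values were 0.75 for Glyma01g10900 (adjusted p = 0.0897) and 0.44 for Glyma08g45531 (adjusted p = 0.185, and 0.00400 with DESeq2), with 0.751% of genes called.

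The reads of Glyma01g10900 were also set against those of Glyma08g45531 within each library, which removes the scaling of the libraries. Per 1000 reads of Glyma08g45531, *3mlpa* seeds had on average 0.430, 4.05, 46.8, 60.3 and 159 reads of Glyma01g10900 from stage 1 to stage 5. The 3MWT seeds had 23.8, 23.3, 63.3, 147 and 183. The lines did not overlap in this ratio at stages 1, 2 and 4. On the log2 scale, with 0.5 added to each count, the ratio was lower by a mean of 2.05 in *3mlpa* libraries. The difference was -2.05 (two-sided permutation test within stages with 100000 permutations, p = 0.00015). At stage 1 the *3mlpa* ratios rest on 0, 0 and 2 reads of Glyma01g10900 and so largely on the added count. With 5 added in place of 0.5 the difference was -1.51. Without replicate number 1, 2 or 3 it was -1.68, -2.05 or -2.43 (same permutation test, p = 0.00149 to 0.00405). This ratio was chosen after the values had been seen. The ratio of Glyma08g45520 to Glyma08g45531, whose 3MWT side is set by the added count alone, differed by 2.79 (p = 1e-05, the smallest the permutations can give), and nothing is read from it.

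**Figure D3:**
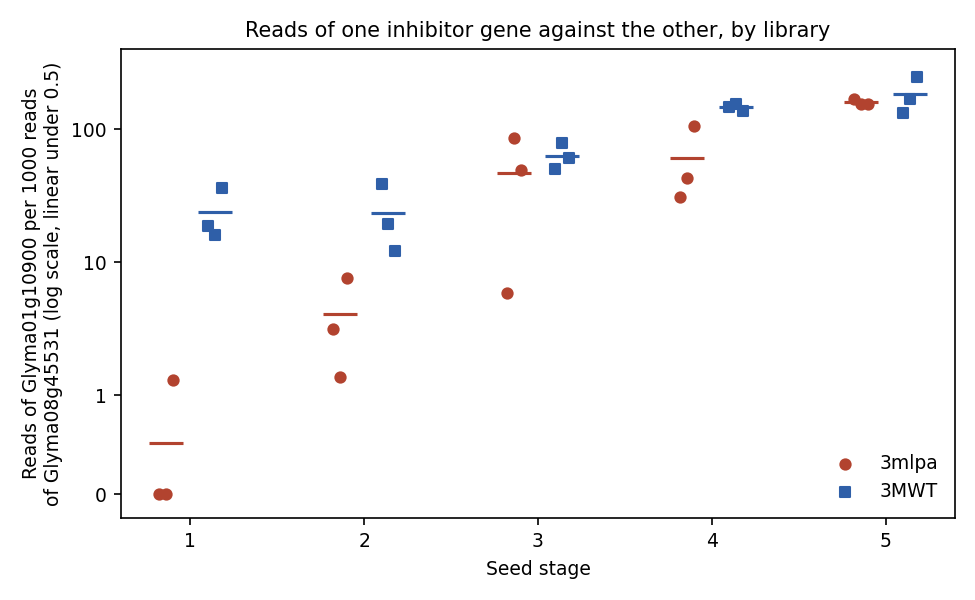
Reads of Glyma01g10900 per 1000 reads of Glyma08g45531 in each of the 30 libraries by seed stage (log scale, linear under 0.5), with *3mlpa* as red circles on the left and 3MWT as blue squares on the right. Bars are means of 3. At stage 1 the *3mlpa* libraries lie between 0 and 1.29 and the 3MWT libraries between 16.1 and 36.4, while at stage 5 the lines overlap.

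The levels of both abundant members followed the order of the libraries along the first principal component of the other genes. Pearson's r with it was 0.948 for Glyma01g10900 and 0.946 for Glyma08g45531 over the 30 libraries on the log2 CPM scale, as a description, since the libraries share stages and lanes. Within the 10 groups of 3 libraries, the library with the most Glyma08g45531 on the normalized CPM scale was the one furthest along the component in 7 groups, and likewise in 7 groups for Glyma01g10900. The lines overlapped on the component at each stage other than stage 2, but the 3MWT mean stood further along at all 5 stages. From stage 1 to stage 5 it was -135 ± 16.6, -51.8 ± 17.5, 23.3 ± 16.2, 81.8 ± 6.36 and 115 ± 10.1 (SD, n = 3 each). The *3mlpa* means were -144 ± 13.2, -77.5 ± 6.36, 8.42 ± 13.9, 66.4 ± 27.3 and 114 ± 9.96 (SD, n = 3 each). The part of this offset in the line effects was not tested.

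**Figure D4:**
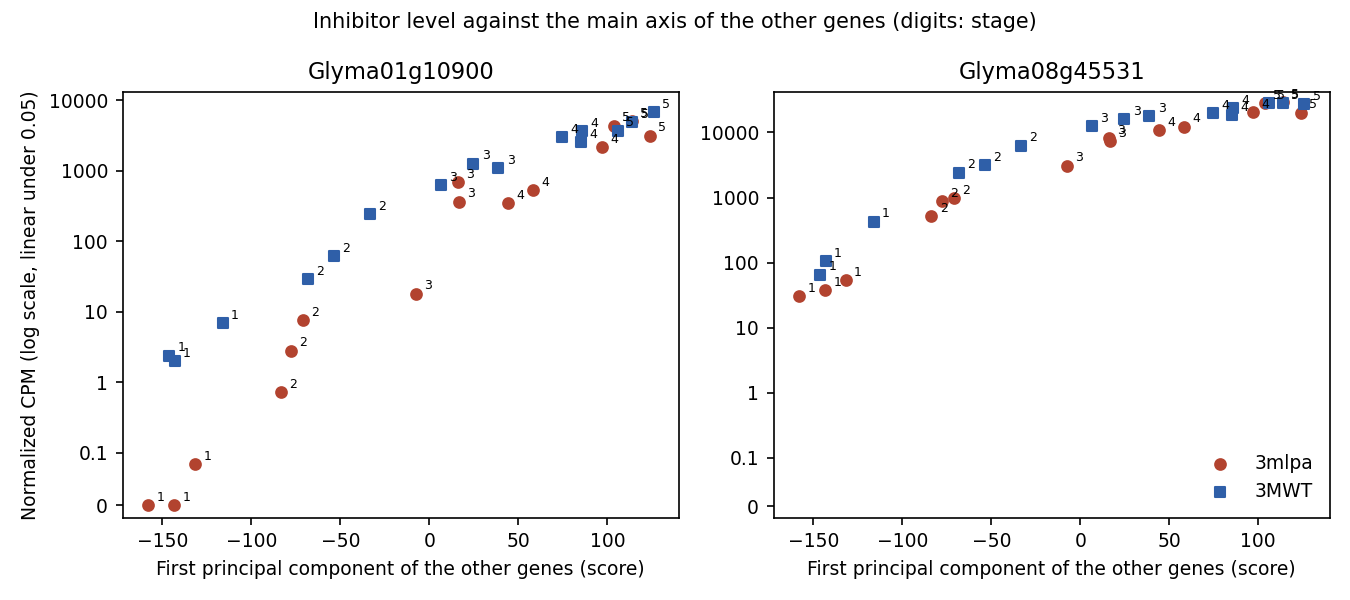
Normalized CPM (log scale, linear under 0.05) of Glyma01g10900 and Glyma08g45531 in the 30 libraries against their score on the first principal component of the other genes, with *3mlpa* as red circles and 3MWT as blue squares and the stage beside each point. Both genes climb along the component with r of 0.948 and 0.946. The part of the position on the component in the line effects was not tested.

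Across the 30 libraries Glyma01g10900 and Glyma08g45531 had an r of 0.971 with each other, and of 0.925 after the mean of each stage was taken off. The genes most like Glyma01g10900 were Glyma03g32030 (r = 0.984), Glyma13g04050 (r = 0.982) and Glyma03g32020 (r = 0.980), among 32400 genes compared. For Glyma08g45531 they were Glyma13g23790 (r = 0.994), Glyma03g04960 (r = 0.993) and Glyma02g47380 (r = 0.993). Glyma08g45520 had no gene as close, with Glyma13g41130 (r = 0.817) first, followed by Glyma18g00300 (r = 0.794) and Glyma08g44930 (r = 0.766). Its r was -0.46 with Glyma01g10900 and -0.48 with Glyma08g45531. Of the 79 reads of Glyma08g45520 in all, 68 lay in the *3mlpa* libraries of stage 1.

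Beyond the 3 members, 10 other genes stand under peptidase inhibitor activity in the deposited gene ontology tables. Those tables hold only genes that the study had called between the lines in these samples, so the list is not independent evidence of a direction. At stage 2, 4 of the 10 were called as lower in *3mlpa* seeds and 1 as higher, and the median log2 fold change was -1.13, against 0.01 over all genes, of which 14.2% were called in either direction. At stage 1 the test called 1 of the 9 tested, as lower (0.897% of all genes). At stage 3 it called 2 as lower and 1 as higher (1.23% of all genes), and at stage 5 it called 1, as lower (1.91% of all genes). At stage 4, where 0.996% of all genes were called, edgeR called 0 of the 10, with 3 at an unadjusted p under 0.05, and DESeq2 called 2 as lower and 1 as higher. Averaged over the stages, 7 of the 10 were called as lower and 1 as higher, in a contrast that called 33.3% of all genes.

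The 5 with the largest mean line effect moved in both directions. Glyma09g39630 averaged 0.151 ± 0.0346 normalized CPM at stage 5 in *3mlpa* seeds and 3.99 ± 0.890 in 3MWT seeds (SD, n = 3 each), a log2 fold change of -4.69 (adjusted p = 0.000761). At stage 1 it was barely detected in either line, with 0 reads in each *3mlpa* library and 1, 3 and 0 in the 3MWT libraries. Glyma08g45580 ran the other way, at 22.0 ± 3.02 normalized CPM at stage 2 in *3mlpa* seeds and 3.67 ± 0.774 in 3MWT seeds (SD, n = 3 each), and 2.12 over the stages (adjusted p = 1.01e-08). Glyma15g12211 and Glyma09g28706 were lower in *3mlpa* seeds by mean log2 fold changes of -1.57 (adjusted p = 4.17e-07) and -1.22 (adjusted p = 0.00348). Glyma09g28706 was not called at any single stage, and at stage 5 it averaged 828 ± 111 normalized CPM in *3mlpa* seeds and 1583 ± 565 in 3MWT seeds (SD, n = 3 each).

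Glyma08g45480, the remaining one of the 5, is also numbered close to Glyma08g45531 and rose over seed growth. In *3mlpa* seeds it had 122593, 139689 and 44307 reads at stage 5 and 37, 33 and 280 at stage 1, a log2 fold change of 10.69 (adjusted p = 0.000240). In 3MWT seeds it had 103922, 108495 and 86110 reads at stage 5 and 497, 1829 and 148 at stage 1, a log2 fold change of 7.41 (adjusted p = 0.000538). Its log2 fold change of *3mlpa* over 3MWT was -3.23 ± 1.095 at stage 1 (SE, adjusted p = 0.0944) and -2.41 ± 0.535 at stage 2 (SE, adjusted p = 0.0113), neither called. It was 0.03 ± 0.414 at stage 5 (SE, adjusted p = 0.970), and -1.27 over the stages (adjusted p = 0.00226).

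The 10 identifiers on each side of the members gave 20 neighbours on chromosome 1 and 20 on chromosome 8, counted in the order of the identifiers. No neighbour was called between the lines at all 5 stages. On chromosome 1 the test called 1 of 11 neighbours tested at stage 2, Glyma01g11390 (1.26, adjusted p = 0.00600), and 1 of 11 at stage 4, Glyma01g11180 (-3.47, adjusted p = 0.00647). On chromosome 8, of 18 neighbours tested, it called 2 as higher and 1 as lower in *3mlpa* seeds at stage 2, led by Glyma08g45580 (2.63, adjusted p = 7.35e-05). Of all genes, 14.2% were called at stage 2 and 0.996% at stage 4, with shares of 1.23% and 1.91% for stages 3 and 5. Glyma08g45580 was again the one called at stage 3 (2.20, adjusted p = 0.00314), and Glyma08g45590 the one called at stage 5 (-3.48, adjusted p = 0.00137). The median log2 fold change of the neighbours tested lay between -0.23 and 0.26 on chromosome 1 and between -0.06 and 0.15 on chromosome 8 over the 5 stages. The identifier next to Glyma08g45520, Glyma08g45510, had 6, 1 and 21 reads in the *3mlpa* libraries of stage 1 and 0 in the 3MWT libraries of that stage, and is named for this after its values were seen. Between the lines at stage 1 it was not called (adjusted p = 0.102).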

How the data were processed

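Whole-seed mRNA libraries (TruSeq, single-end 100 bp reads) were made from 3 biological replicates of each line and stage. The authors aligned the reads with TopHat2 2.0.8 to the Williams 82 assembly a1.0 with its v1.1 gene models. Reads were counted per gene with HTSeq (Union mode), and the values deposited by the authors are raw counts. A read that overlapped several genes or aligned to several places was not counted. The background gene numbers in the deposited gene ontology tables, of unit other, were made by the authors with agriGO, and only the gene lists beside them were read, as annotation. Deposited tables of the authors' own comparisons and normalized abundances were not used.

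Here the counts were tested with edgeR 4.0.16 in R 4.3.3 (glmQLFit and glmQLFTest) after TMM scaling, on genes whose counts came to 10 or more in the libraries of a fit, with Benjamini-Hochberg adjustment and calls at 0.01. Lines were compared within each stage on 6 libraries, stages within each line on 6 libraries, and averages over stages on 30 libraries. SE is the log2 fold change divided by the root of the F statistic. Log2 CPM used a prior count of 2. Alternatives were DESeq2 1.42.0 (size factors, and its Wald test), library totals, other filters, the replicate number as a block, a fit over 30 libraries, and each library left out. The functions were tested on simulated data. Named genes are the 3 members, the 3 most correlated genes for each (mean of at least 1 CPM), up to 5 other annotated inhibitors with the largest absolute fold change among those called, and, of 10 identifiers on each side, any called at 5 stages and the one with the smallest p among those called at a stage. Members and lists were chosen with earlier results of these data known.

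Same-numbered libraries of the lines did not deviate together at any stage (at most 1 of 3 pairs had a correlation over 0.1), so the numbers were not taken as pairs. For stage 4 against stage 3 in 3MWT all 3 pairs were over 0.1 (0.139 to 0.230), and the block is given beside that result, with the pairing taken from this check alone. Replicates were seed pools from separate plants, and no library repeated another. None of the 54175 identifiers matched the RefSeq table, so positions beyond the chromosome number, gene lengths and sequences were not used here.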

Additional observations from a re-analysis of the deposited data

Results flagged for a closer look

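The line effect on Glyma01g10900 was called as different between early and late seed stages, in a contrast that called 4.55% of all genes. The effect at stages 4 and 5 minus that at stages 1 and 2 was 4.98 on the log2 scale, with an adjusted p of 0.00961 from edgeR's quasi-likelihood test of the difference itself, and the *3mlpa* libraries held 2 and 378 reads of it at stages 1 and 2 in all, against 239 and 7555 in the 3MWT libraries. The call was lost without replicate number 1, 2 or 3, with the replicate number as a block and with DESeq2 size factors. In the same test Glyma08g45531 stood at 1.99 (adjusted p = 0.0114) and Glyma08g45480 at 2.90 (adjusted p = 0.0105), neither called. Of the 10 other annotated inhibitors, which include Glyma08g45480, 1 was called, as positive, and their median was -0.06.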

How the results depend on the processing

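The line effects averaged over the stages, and the rise of Glyma01g10900 and Glyma08g45531 at stage 5 over stage 1, kept their direction and their call under every alternative run. Other calls at single stages lay close to the threshold. With the replicate number as a block, Glyma01g10900 was no longer called between the lines at stage 1 (-6.90, adjusted p = 0.0361) or stage 2 (-4.71, adjusted p = 0.0192), nor was its late minus early difference (5.08, adjusted p = 0.0106). The block changed the number of genes called between the lines to 27 at stage 1, in place of 381, and to 3018 at stage 2, in place of 6019. It was no design pairing. With library totals alone Glyma01g10900 was not called at stage 1 (-6.98), while Glyma08g45520 was called at stage 5 over stage 1 in *3mlpa* (adjusted p = 0.00462). That scaling moved the median of all genes at stage 5 over stage 1 by -0.92 in *3mlpa* and -0.88 in 3MWT. With DESeq2 size factors the late minus early difference of Glyma01g10900 was 4.95 and not called. DESeq2's own test called Glyma08g45531 between the lines at stage 3 (-1.31) and late minus early (1.95), and Glyma08g45520 at stage 1 (adjusted p = 2.45e-05). It called 4122, 2829, 1863 and 3046 genes at stages 1, 3, 4 and 5, where edgeR called 381, 503, 398 and 749. Without the filter, Glyma08g45520 was called at stage 1 (adjusted p = 0.00984). The fit over 30 libraries called it too (adjusted p = 0.00242), and Glyma08g45531 at stage 1 (-2.29), with 4344 genes called there. The cause of these changes was not tested.

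With 1 library left out at a time, the line effect of Glyma01g10900 lay between -9.50 and -6.24 at stage 1, -5.92 and -3.56 at stage 2, and -2.82 and -1.17 at stage 4. That of Glyma08g45531 lay between -2.53 and -1.77 at stage 2, -0.85 and -0.34 at stage 4, and -0.22 and 0.0253 at stage 5, where its sign turned without *3mlpa* replicate 3. The adjusted p of Glyma08g45520 lay between 0.00344 and 0.0598 at stage 1, and between 0.00692 and 0.0858 at stage 5 over stage 1 in *3mlpa*. The late minus early difference of Glyma01g10900 lay between 4.15 and 6.57 without 1 replicate number. After the stage means were taken off, the gene most like Glyma08g45531 was Glyma03g04960 (r = 0.964), and most like Glyma01g10900 was Glyma08g08970 (r = 0.938). Low counts limit the estimates for Glyma08g45520 in every library and for Glyma01g10900 in the *3mlpa* libraries of stage 1.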
